A study of Mus musculus with 10 samples.

Results

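Cells that had been converted toward hair cells by Atoh1 were compared with unconverted supporting cells (SCs), the cell type they came from. All genes were compared, in 4 of the 10 bulk RNA-seq libraries of the series. The members were chosen by the library name that each count file carries, which gave 2 libraries of converted hair cells (cHCs, replicates 13 and 16) and 2 of SCs (replicates 12 and 11). Of the 10 files, 4 were attached to the record of another library than the one they name, and with the files taken as attached 0 genes were called in edgeR (590 at an unadjusted p under 0.05), so every result below rests on the library names. The SCs came from Fgfr3-iCreER mice that carried a tdTomato reporter in Rosa26, silent until Cre removes its stop cassette. The cHCs came from mice that carried the same alleles together with an inducible Atoh1-HA transgene and an EGFP reporter driven by the alpha9 acetylcholine receptor gene *Chrna9*. Both groups had received tamoxifen at P12 and P13. The SCs were collected at P27 (replicate 12) and P26 (replicate 11), and both cHC libraries at P33. These SCs came from other mice than the cHCs and were collected after the induction. They are therefore not the cells from which the conversion began, and a rise or fall below is a difference from these SCs. Age, the Atoh1 transgene and the EGFP reporter all differ between the groups, so their effects cannot be told apart. The Fgfr3 driver labels Deiters' cells and pillar cells, and it is active in part of the SC population only. Fluorescent cells were picked by hand after the cochleae had been dissociated, so that cHCs were by their selection cells in which *Chrna9* was active. The sources used here do not say how many animals gave cells to a library. Nor do they say whether the libraries of a group came from different animals. The p values therefore measure spread between libraries, estimated over all 10 of the series. The libraries of native hair cells entered the gene filter and the model that gave the reported calls. Beside the results, native hair cells are given as a description, without a test of their own. They were outer hair cells (OHCs) at P7 and mature OHCs, both labelled as prestin-YFP knock-in, and mature inner hair cells (IHCs) of Pvalb-Cre mice with the same tdTomato reporter, with 2 libraries of each. In the methods the mature OHCs were taken at P22 and P23, where their titles carry 21 and 22, and the IHCs at P74 and P75. For the OHCs at P7 the methods name a prestin-CreERT2 driver with the tdTomato reporter instead, so their genotype is uncertain.

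Hair cells are the mechanosensory cells of the cochlea. Deflection of their actin-filled stereocilia pulls on tip links, opens transduction channels and depolarises the cell, and in IHCs ribbon synapses then pass the signal to spiral ganglion neurons, while OHCs amplify the sound with the motor protein prestin. SCs surround the hair cells, hold them in place, recycle potassium and secrete part of the tectorial matrix. In the embryo both cell types descend from common precursors, in which the basic helix-loop-helix transcription factor (TF) Atoh1 sets the hair cell fate and Notch signalling holds it back in the neighbouring cells. In birds lost hair cells are replaced from SCs, which the mature mammalian cochlea does not do, and forced expression of *Atoh1* is one way of driving SCs toward hair cells.

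Atoh1 and related proteins bind E-boxes, for which the palindrome CAGCTG is a known preferred form. The stretch of 250 bases before the start of the gene model was searched for these letters, which read the same on both strands, in the mm9 genome with the GENCODE models of that build. Of the 60 named genes that were higher in cHCs and had such a stretch, with 1 chromosome left out, 9 contained CAGCTG. From these, 3 are printed to show what such a stretch looks like in genes with different roles. *Lhfpl5* encodes a subunit of the transduction channel complex (mm9, chr17:28712413-28712662, plus strand), *Espn* the actin bundling protein espin (chr4:151526481-151526730, minus strand) and *Barhl1* a homeodomain TF of hair cells (chr2:28772189-28772438, minus strand). The sequences run from 5′ to 3′ and end at the base before the start of the gene, with CAGCTG in capitals.
Lhfpl5: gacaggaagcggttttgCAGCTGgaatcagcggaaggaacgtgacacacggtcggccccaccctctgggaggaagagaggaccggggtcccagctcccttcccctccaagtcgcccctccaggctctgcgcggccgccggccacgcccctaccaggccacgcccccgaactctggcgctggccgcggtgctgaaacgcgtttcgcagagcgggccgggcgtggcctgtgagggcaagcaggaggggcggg
Espn: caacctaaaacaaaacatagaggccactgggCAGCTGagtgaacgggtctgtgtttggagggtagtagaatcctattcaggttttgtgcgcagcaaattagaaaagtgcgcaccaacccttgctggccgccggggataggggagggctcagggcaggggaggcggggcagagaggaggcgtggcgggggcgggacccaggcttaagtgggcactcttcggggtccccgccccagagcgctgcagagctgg
Barhl1: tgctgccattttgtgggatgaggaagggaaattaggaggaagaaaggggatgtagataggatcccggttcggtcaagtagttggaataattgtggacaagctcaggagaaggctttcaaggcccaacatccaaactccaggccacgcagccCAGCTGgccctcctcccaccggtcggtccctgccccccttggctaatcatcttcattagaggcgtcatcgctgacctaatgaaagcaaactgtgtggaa
Over all genes tested, 1610 of 13959 such stretches (11.53%) held CAGCTG, against 37 of 284 (13.03%) among the genes that were higher in cHCs and 0 of 15 among those that were lower. The share among the higher genes therefore lay near that of all genes. A match is a match of letters and not a bound site.

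Between 19621193 and 40518766 reads were counted on genes in these 4 libraries, so that 3 counts in a library corresponded to between 0.0740 and 0.153 CPM (counts scaled to the size of the library) before TMM factors were applied. Amplified reads carry no molecular identifiers here and are not independent, so limits and intervals cover counting error alone. Counts were found on 15138 and 15849 genes in SCs and on 16732 and 18333 genes in cHCs. The share of aligned reads that fell outside annotated genes was 31.5% and 35.7% in SCs and 46.8% and 47.9% in cHCs, and its part in the results was not tested. Spearman's rho of the counts across 21242 genes was 0.816 between the SC libraries, 0.819 between the cHC libraries and between 0.695 and 0.770 across the cell types. Levels of *Xist* and of Y-linked genes differed between the libraries of each group, since *Xist* was measured at 2.31 and 1127 CPM in SCs against 1531 and 2.87 CPM in cHCs, in the order of replicates 12 and 11 and of replicates 13 and 16 that is kept throughout. In bulk samples, fewer cells of a type and less RNA per cell cannot be told apart.

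The conversion factor itself was checked first. *Atoh1* was measured at 0.267 and 1.91 CPM in SCs against 364 and 1812 CPM in cHCs (log2 fold change 9.93, SE 1.43, FDR = 0.00804). The libraries of each group differed from each other by several fold, and the groups did not overlap. Counts on *Atoh1* in cHCs include those of the transgene. The highest level in native hair cells was 6.44 CPM, in OHCs at P7, and all 4 libraries of mature OHCs and IHCs had no counts on it.

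Across the 16891 genes tested, the level in cHCs was higher for 296 genes (1.75%) and lower for 15 (0.0888%) at a false discovery rate (FDR) under 0.05 in the quasi-likelihood F-test of edgeR. At an unadjusted p under 0.05 the counts were 1857 and 675. All 296 higher genes were above both SC libraries in both cHC libraries, which held for 25.4% of all genes tested, and the 15 lower genes were below them in the same way, which held for 20.4%. The median log2 fold change was 8.48 among the higher genes and -4.35 among the lower genes, beside 0.03 over all genes tested. Most of the higher genes were near nothing in these SCs. The mean SC level lay under 1 CPM for 234 of the 296 genes and at 10 CPM or more for 29, and 11 had no count in either SC library. Of the higher genes 284 were protein coding and 4 were long intergenic noncoding RNAs in the annotation, with 292 matched to one gene model. The limma-voom test, which the methods of the study name, called 789 genes higher and 276 lower, and DESeq2 called 1367 and 390. Without any one of the 4 libraries, 150 of the 296 higher genes and 0 of the 15 lower genes were called each time.

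**Figure D1:**
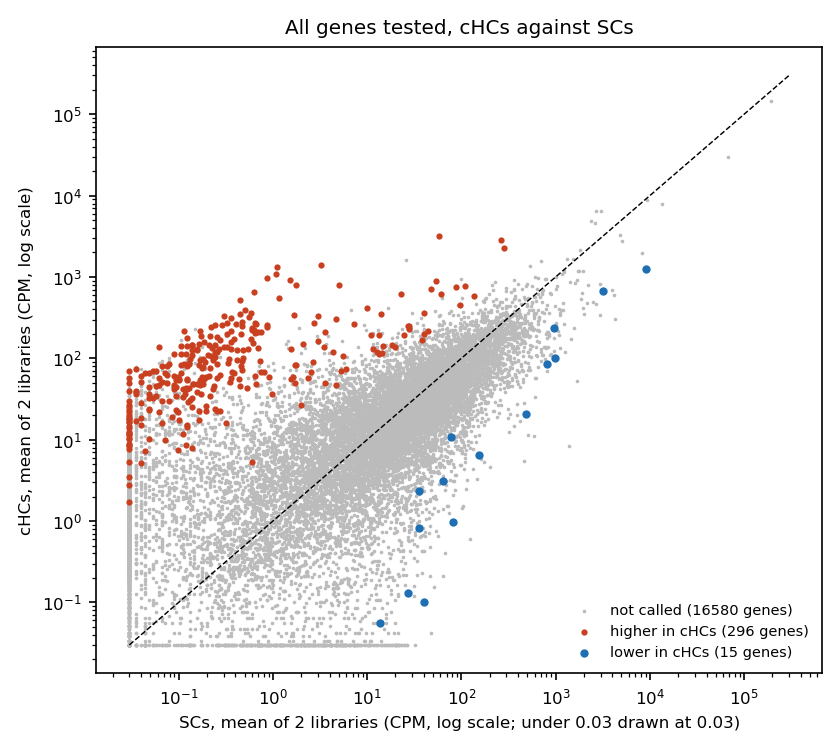
Mean level of each of the 16891 tested genes in cHCs (vertical axis, CPM, log scale) against its mean level in SCs (horizontal axis, CPM, log scale), 2 libraries each, with means under 0.03 CPM drawn at 0.03 and the dashed line marking equal levels. Most of the 296 higher genes (red, FDR under 0.05) sit at the left, with an SC mean under 1 CPM for 234 of them, and the 15 lower genes (blue) lie below the line at SC levels above 10 CPM.

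Most of the higher genes were also found in native hair cells. At least 1 CPM in all 6 native hair cell libraries was reached by 210 of the 296 higher genes (70.9%), compared with 44.5% of all genes tested. Only 7 of the 296 (2.36%) stayed under 1 CPM in all 6 libraries, compared with 7.54% of all genes tested. The native libraries also entered the filter and the fit that gave these calls, so neither share is independent of them. Of all 16891 genes tested, 11219 reached 1 CPM in both cHC libraries. The background thus includes genes with low cHC levels, and the shares are not of like sets. The cHC libraries did not contribute equally, since 220 of the 296 genes (74.3%) were at a higher level in replicate 16 than in replicate 13, beside 52.3% of all genes tested.

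**Figure D2:**
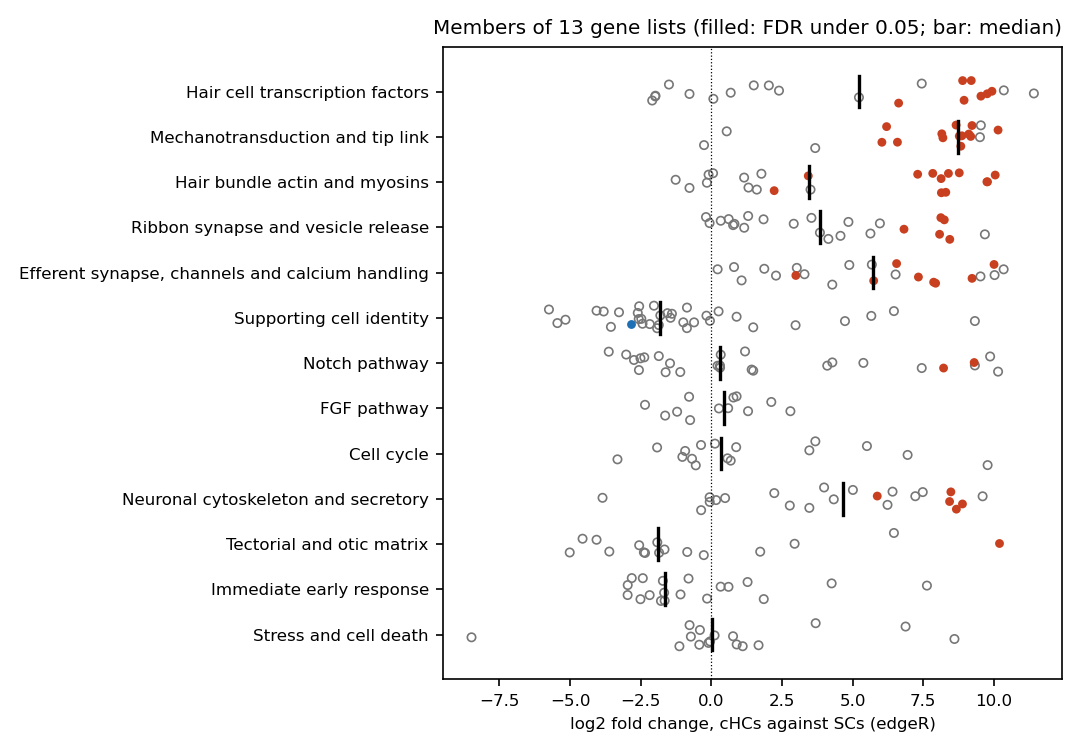
Log2 fold change between cHCs and SCs (horizontal axis, edgeR) of each tested member of 13 gene lists (rows), with members under an FDR of 0.05 filled in red (higher) or blue (lower), all others open, and the median of each list as a black bar. The medians of the 5 hair cell lists lie between 3.47 and 8.72, and that of supporting cell identity at -1.81.

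Hair cell genes were described in 5 lists by role, which together held 106 tested genes. Of these, 45 (42.5%) rose, beside 1.75% of all genes tested. In 80 of them both cHC libraries were above both SC libraries, which held for 25.4% of all genes tested. These lists were chosen with earlier results of these data known, as were the other role and marker lists below. The counts are therefore not independent of these data. The median log2 fold change of the 106 genes was 5.71. With edgeR, 0 of the 106 fell, while 3 had a negative change at an unadjusted p under 0.05 and DESeq2 and limma-voom each called 1 lower. At least 1 CPM in both cHC libraries was reached by 96 of them. Among the 45 genes that rose, 36 were at a higher level in cHC replicate 16 than in replicate 13.

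Genes of mechanotransduction and the links between stereocilia formed the list with the largest share of rises. Of 18 tested members, 13 rose and 5 did not pass the test, with a median log2 fold change of 8.72. *Ptprq*, which encodes a phosphatase of the shaft connectors of the bundle, had the smallest FDR of any gene named here and was measured at 3.38 and 3.05 CPM in SCs against 1362 and 1457 CPM in cHCs (log2 fold change 8.78, SE 0.45, FDR = 1.25e-05). Its 4 libraries formed tight pairs that lay far apart, and native hair cells ranged between 1364 and 3849 CPM. *Cdh23*, which encodes the upper part of the tip link, was measured at 0.755 and 1.57 CPM in SCs against 301 and 797 CPM in cHCs (log2 fold change 8.87, SE 0.85, FDR = 0.000239). *Pcdh15*, which encodes the lower part, was already present in SCs, at 128 and 269 CPM, and was at 193 and 385 CPM in cHCs, where the groups overlapped (log2 fold change 0.54, FDR = 0.699). The genes of the upper and lower parts therefore differed in their level in these SCs.

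Among the genes of the channel complex, *Lhfpl5* was measured at 0.355 and 0.823 CPM in SCs against 211 and 512 CPM in cHCs (log2 fold change 9.22, SE 0.84, FDR = 0.000161) and *Tmie*, which encodes another subunit, at 0.0888 and 0.266 CPM in SCs against 76.7 and 76.8 CPM in cHCs (log2 fold change 8.66, SE 0.97, FDR = 0.000784). *Cib2*, which encodes a calcium-binding partner of the channel, rose from 0.666 and 8.61 CPM to 309 and 304 CPM (log2 fold change 6.04, SE 0.998, FDR = 0.00911). The pore genes did not rise evenly. *Tmc1*, the pore gene of mature hair cells, was measured at 0.222 and 0.266 CPM in SCs against 46.2 and 1.91 CPM in cHCs (log2 fold change 6.59, SE 1.24, FDR = 0.0205), with the second cHC library close to the SCs and native hair cells between 184 and 1302 CPM. Its call was lost without SC replicate 12 (FDR = 0.0810) and without SC replicate 11 (FDR = 0.0738). *Tmc2*, the pore gene of immature hair cells, was at 0.0888 and 0.0266 CPM in SCs against 60.5 and 26.2 CPM in cHCs and did not pass the test (log2 fold change 9.51, FDR = 0.149), whereas the mature OHC libraries were at 0 and 6.40 CPM and the IHC libraries at 0 and 0 CPM.

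Several genes of stereociliary links and of hereditary deafness rose with them. *Gpr98*, which encodes a large adhesion receptor of the ankle links of young bundles, rose from 0.222 and 0.903 CPM to 212 and 431 CPM (log2 fold change 9.11, SE 0.999, FDR = 0.000685). *Loxhd1*, *Clrn1* and *Strc*, genes of bundle maintenance and of the connectors between stereocilia, had log2 fold changes of 9.18, 8.16 and 8.20 with FDRs of 7.21e-05, 8.99e-05 and 8.22e-05. Their cHC levels were 122 and 211 CPM for *Loxhd1*, 39.7 and 27.8 CPM for *Clrn1* and 119 and 228 CPM for *Strc*. Lower levels were found for 2 further genes that rose, with *Tomt*, needed for transport of the channel, at 4.81 and 16.2 CPM and *Whrn*, which encodes a scaffold of the stereocilia tips, at 1.74 and 13.4 CPM in cHCs. The call of *Tomt* was lost without SC replicate 11 (FDR = 0.101) and without cHC replicate 16 (FDR = 0.0513), and that of *Whrn* without SC replicate 12 (FDR = 0.178), without SC replicate 11 (FDR = 0.167) and without cHC replicate 16 (FDR = 0.215). *Ush1c* (129.8 and 112 CPM in SCs against 84.4 and 118 CPM in cHCs), *Pdzd7* (13.9 and 0.133 CPM in SCs against 86.8 and 92.2 CPM in cHCs) and *Ush1g* (0 and 0.0266 CPM in SCs against 3.19 and 26.3 CPM in cHCs), all scaffolds of the links, did not pass the test, with FDRs of 0.892, 0.293 and 0.0721. In a fit of only these 4 libraries 9 of the 18 members were called.

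The list of bundle actin proteins and myosins held 22 tested genes, of which 12 rose and 10 did not pass the test, with a median log2 fold change of 3.47. Its members divided into genes that were nearly silent in SCs and genes that SCs already expressed. *Espn* was measured at 0.133 and 0.239 CPM in SCs against 22.1 and 88.3 CPM in cHCs (log2 fold change 8.14, SE 0.91, FDR = 0.000786), and *Fscn2*, which encodes another actin crosslinker, at 0 and 0.0531 CPM in SCs against 7.70 and 16.0 CPM in cHCs (log2 fold change 8.39, SE 1.31, FDR = 0.00630). The espin-like gene *Espnl* was at 0.622 and 0.877 CPM in SCs against 159.8 and 265 CPM in cHCs (log2 fold change 8.13, SE 1.02, FDR = 0.00158). For all 3 actin crosslinkers, cHC replicate 13 was the lower of the cHC libraries. *Xirp2*, which encodes an actin-binding protein of stereocilia, was at 0.0888 and 0.159 CPM in SCs against 129 and 151 CPM in cHCs with closely matched cHC libraries (log2 fold change 10.05, SE 0.88, FDR = 0.000124).

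Of the 6 myosin genes in this list, 5 rose, and *Myo1h* (0.0888 and 3.98 CPM in SCs against 7.53 and 1.68 CPM in cHCs) did not pass the test. *Myo15*, whose myosin carries cargo to the tips, was measured at 8.71 and 1.46 CPM in SCs against 669.9 and 929 CPM in cHCs (log2 fold change 7.30, SE 0.87, FDR = 0.00119). *Myo3a* was at 0.533 and 0.186 CPM in SCs against 358 and 260.2 CPM in cHCs (log2 fold change 9.77, SE 0.83, FDR = 9.35e-05) and its paralog *Myo3b* at 0.0888 and 0.239 CPM in SCs against 96.6 and 203 CPM in cHCs (log2 fold change 9.75, SE 1.30, FDR = 0.00520). *Myo3b* was at 70.5 and 42.9 CPM in OHCs at P7, at 0 and 0 CPM in mature OHCs and at 0 and 0 CPM in IHCs. Both cHC libraries were above every native library for this gene. *Myo6*, whose myosin anchors the stereocilia base, was at 277 and 246 CPM in SCs against 2775 and 2861 CPM in cHCs (log2 fold change 3.43, SE 0.34, FDR = 0.000327). *Myo7a*, the Usher syndrome myosin, also had a substantial SC level (82.9 and 112 CPM in SCs against 405 and 504 CPM in cHCs, log2 fold change 2.22, SE 0.47, FDR = 0.0392). Its call was lost without SC replicate 12, without SC replicate 11 and without cHC replicate 16. The glutaredoxin-like genes *Grxcr1* and *Grxcr2*, which shape the stereocilia, rose from at most 0.266 CPM in SCs to 28.5 and 54.8 CPM and to 23.4 and 54.6 CPM, with FDRs of 0.000919 and 0.00138. *Dfnb59*, which encodes pejvakin, rose from 0.0444 and 0.0266 CPM to 28.1 and 5.66 CPM (log2 fold change 8.77, SE 1.14, FDR = 0.00209).

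Most of the bundle genes that did not pass the test had SC levels well above 1 CPM. The plastin gene *Pls1* was at 197 and 248 CPM in SCs against 99.3 and 86.3 CPM in cHCs, the capping protein gene *Eps8* at 19.5 and 35.4 CPM in SCs against 19.9 and 12.3 CPM in cHCs and the membrane linker gene *Rdx* at 211 and 93.6 CPM in SCs against 169 and 116 CPM in cHCs. The cHC mean of each of these 3 lay below its SC mean, and their FDRs were 0.278, 0.736 and 0.972. *Triobp*, whose product bundles the rootlets of stereocilia, was at 79.2 and 257 CPM in SCs against 443 and 581 CPM in cHCs, above SCs in all 4 pairs but without passing the test (log2 fold change 1.61, FDR = 0.246). *Clic5* (91.5 and 24.4 CPM in SCs against 96.5 and 24.4 CPM in cHCs) differed more within the groups than between them. In a fit of only the 4 libraries 6 of the 22 members were called.

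**Figure D3:**
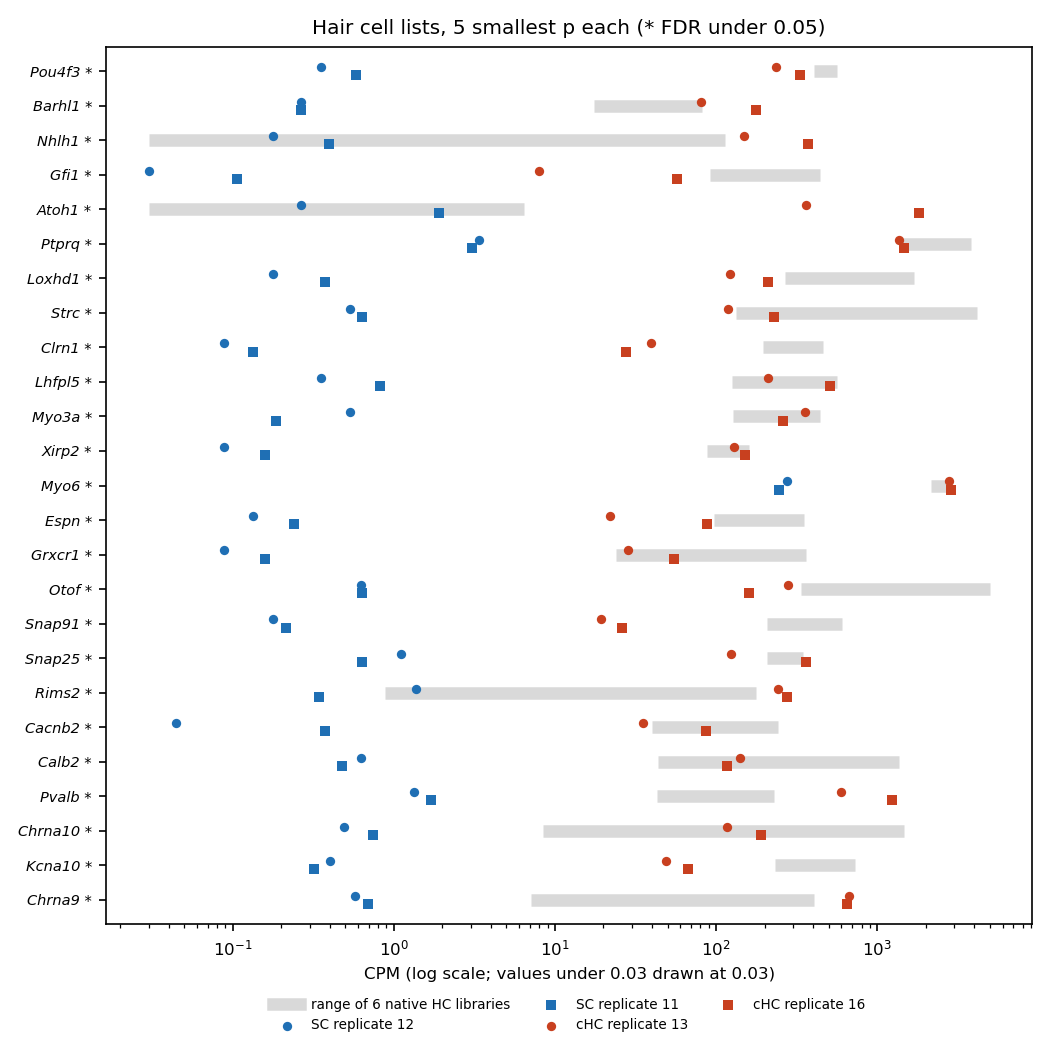
CPM (horizontal axis, log scale, values under 0.03 drawn at 0.03) of the 5 genes with the smallest p of each of the 5 hair cell lists (rows), in SC replicates 12 and 11 (blue), cHC replicates 13 and 16 (red) and as the range of the 6 native hair cell libraries (grey bars), an asterisk marking an FDR under 0.05. Red points lie to the right of blue points in every row, and both red points of *Pou4f3*, *Gfi1*, *Loxhd1*, *Clrn1*, *Espn*, *Otof*, *Snap91* and *Kcna10* lie left of the native range.

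Of 23 tested presynaptic genes, 5 rose and 18 did not pass the test, and the median log2 fold change was 3.84. *Otof*, which encodes the calcium sensor of hair cell exocytosis, was measured at 0.622 and 0.637 CPM in SCs against 279 and 161 CPM in cHCs (log2 fold change 8.44, SE 0.54, FDR = 4.27e-05). *Cacnb2*, a calcium channel subunit gene, was at 0.0444 and 0.372 CPM in SCs against 35.1 and 86.1 CPM in cHCs (log2 fold change 8.08, SE 1.14, FDR = 0.00339) and *Rims2*, which encodes an active zone scaffold, at 1.38 and 0.345 CPM in SCs against 243 and 274 CPM in cHCs (log2 fold change 8.24, SE 1.12, FDR = 0.00291). The membrane fusion gene *Snap25* was at 1.11 and 0.637 CPM in SCs against 125 and 361 CPM in cHCs (log2 fold change 8.12, SE 0.81, FDR = 0.000319). *Snap91*, which serves vesicle recycling, reached 19.3 and 26.1 CPM in cHCs from 0.178 and 0.212 CPM (log2 fold change 6.82, SE 0.61, FDR = 0.000139), while native hair cells were between 208 and 608 CPM. All 5 calls were kept without each of the 4 libraries in turn.

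Other ribbon genes were present in cHCs without passing the test. *Ctbp2*, which encodes the ribbon protein ribeye, was measured at 7.33 and 1.99 CPM in SCs against 38.8 and 31.4 CPM in cHCs (log2 fold change 2.92, FDR = 0.145). *Cacna1d*, the calcium channel gene of the ribbon synapse, was at 28.2 and 0.531 CPM in SCs against 228 and 183 CPM in cHCs and *Bsn*, which encodes the ribbon anchor bassoon, at 3.78 and 0.133 CPM in SCs against 28.7 and 83.6 CPM in cHCs, with FDRs of 0.183 and 0.172. For these 3 genes both cHC libraries were above both SC libraries, and the SC libraries of *Cacna1d* and *Bsn* differed widely from each other. *Slc17a8*, which encodes the vesicular glutamate transporter of IHCs, was at 0.0444 and 0.0266 CPM in SCs against 1.87 and 0 CPM in cHCs, beside 1907 and 1762 CPM in IHCs. A fit of only the 4 libraries called 3 of the 19 members it tested, and DESeq2 called 12 of 23.

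The list of efferent synapse, channel and calcium handling genes held 22 tested members, of which 8 rose and 14 did not pass the test, with 13 called by DESeq2. All 22 had a positive log2 fold change, with a median of 5.71. *Chrna9* was measured at 0.577 and 0.691 CPM in SCs against 669.9 and 648 CPM in cHCs (log2 fold change 10.01, SE 0.91, FDR = 0.000160), and since cHCs were picked by a reporter of this gene its rise was favoured by the selection. *Chrna10*, the partner subunit of the efferent receptor, was not the reporter gene. It was at 0.489 and 0.744 CPM in SCs against 117 and 189 CPM in cHCs (log2 fold change 7.94, SE 0.64, FDR = 8.22e-05). The paper regards cHCs picked by a hair cell marker as likely drawn from the further converted cells. The rises of *Chrna10* and of other hair cell genes are therefore not independent of the picking. *Kcnn2*, whose potassium channel completes the efferent response, rose to 5.23 and 10.5 CPM from 0.0888 and 0.186 CPM (log2 fold change 5.75, SE 0.89, FDR = 0.00623), whereas the mature OHC libraries were at 228 and 203 CPM. *Rapsn*, whose product clusters receptors at other cholinergic synapses, was at 0 and 0.0266 CPM in SCs against 0.0851 and 1.88 CPM in cHCs (log2 fold change 5.68, FDR = 0.360).

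Calcium-binding proteins buffer and sense calcium in the hair cell body. *Pvalb*, the parvalbumin gene, was measured at 1.33 and 1.70 CPM in SCs against 599 and 1228 CPM in cHCs (log2 fold change 9.23, SE 0.74, FDR = 8.22e-05), above its native range of between 42.9 and 228 CPM. *Calb2*, the calretinin gene, was at 0.622 and 0.478 CPM in SCs against 141 and 116 CPM in cHCs (log2 fold change 7.87, SE 0.58, FDR = 5.58e-05). Both rises contrast with *Ocm*, the oncomodulin gene of OHCs, which was at 2.71 and 3.16 CPM in SCs against 4.98 and 1.91 CPM in cHCs and at 7562 and 9278 CPM in mature OHCs, with overlapping SC and cHC libraries (log2 fold change 0.22, SE 0.57, FDR = 0.914). *Calb1* was at 1.33 and 1.59 CPM in SCs against 175 and 94.9 CPM in cHCs and lay just outside the threshold (log2 fold change 6.52, FDR = 0.0517).

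Channel genes of mature hair cells differed among themselves. The potassium channel gene *Kcna10* rose from 0.400 and 0.319 CPM to 49.1 and 67.0 CPM (log2 fold change 7.33, SE 0.61, FDR = 8.99e-05), beside between 233 and 727 CPM in native hair cells. *Kcnma1*, which encodes the large conductance potassium channel, was at 0.0444 and 0.0266 CPM in SCs against 0.255 and 0.356 CPM in cHCs, with native hair cells between 25.7 and 479 CPM (log2 fold change 3.02, FDR = 0.237). The calcium pump gene *Atp2b2* was at 6.17 and 144 CPM in SCs against 272 and 277 CPM in cHCs, above SCs in all 4 pairs of libraries without passing the test (log2 fold change 1.87, FDR = 0.393). *Slc26a5*, the prestin gene, was at 0.755 and 0.531 CPM in SCs against 97.6 and 23.4 CPM in cHCs (log2 fold change 6.56, SE 0.74, FDR = 0.000818) and at 3789 and 2749 CPM in mature OHCs.

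The markers of OHCs and of IHCs were both represented among the rises. Of 7 OHC markers, 3 rose (*Slc26a5*, *Strc* and *Chrna10*), and of 6 IHC markers, 2 rose (*Otof* and *Calb2*), beside 1.75% of all genes tested. All of these also belong to the lists above and are not further evidence. Nor did all of them separate the native cell types. *Otof* was at 1036 and 1145 CPM and *Calb2* at 142 and 160 CPM in OHCs at P7, and *Strc* was at 143 and 134 CPM in IHCs. *Slc26a5* (1.31 and 0.859 CPM) and *Chrna10* (11.5 and 8.39 CPM) were low in IHCs. *Tbx2*, a TF gene of IHCs, was near 0 in SCs and cHCs (0 and 0 CPM in SCs against 0.0425 and 0.279 CPM in cHCs) and at 272 and 198 CPM in IHCs. *Ikzf2*, a TF gene of OHCs, was at 39.9 and 296 CPM in SCs against 62.8 and 22.6 CPM in cHCs and at 502 and 491 CPM in mature OHCs (log2 fold change -1.98, FDR = 0.313). The neurexin gene *Nrxn3* was at 0.311 and 13.3 CPM in SCs against 255 and 529 CPM in cHCs and lay just outside the threshold (log2 fold change 5.84, FDR = 0.0533).

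The list of hair cell TFs and related regulators had 21 tested members, of which 7 rose and 14 did not pass the test, with a median log2 fold change of 5.22, or 2.39 when groups without counts were set to the floor of 3 counts. Apart from *Atoh1*, the genes of its known cascade were among them. *Pou4f3*, whose product maintains hair cells, was measured at 0.355 and 0.584 CPM in SCs against 235 and 329.8 CPM in cHCs (log2 fold change 9.20, SE 0.63, FDR = 5.14e-05). *Gfi1*, which encodes a zinc finger repressor of neuronal genes, was at 0 and 0.106 CPM in SCs against 7.91 and 57.3 CPM in cHCs (log2 fold change 8.94, SE 1.31, FDR = 0.00425), below the native range of between 91.8 and 440.4 CPM in both cHC libraries. *Barhl1* was at 0.267 and 0.266 CPM in SCs against 80.8 and 177 CPM in cHCs (log2 fold change 8.89, SE 1.22, FDR = 0.00302), and *Lhx3*, a LIM homeodomain gene, at 0.0888 and 0.186 CPM in SCs against 64.9 and 152 CPM in cHCs (log2 fold change 9.54, SE 1.67, FDR = 0.0135). The call of *Lhx3* was lost without SC replicate 12 (FDR = 0.0781) and without SC replicate 11 (FDR = 0.0572). *Srrm4*, a splicing regulator of hair cells and neurons, was at 0.222 and 5.23 CPM in SCs against 201 and 344 CPM in cHCs (log2 fold change 6.63, SE 1.28, FDR = 0.0236).

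A second set of regulators belongs to young hair cells and neuronal precursors. *Nhlh1*, a helix-loop-helix gene, was measured at 0.178 and 0.398 CPM in SCs against 149 and 371 CPM in cHCs (log2 fold change 9.76, SE 1.27, FDR = 0.00319), at 113 and 114 CPM in OHCs at P7 and at no more than 0.253 CPM in the 4 mature native libraries. *Insm1*, which encodes a zinc finger factor of nascent OHCs, was at 0 and 0.0266 CPM in SCs against 18.8 and 90.1 CPM in cHCs and did not pass the test (log2 fold change 11.41, FDR = 0.0585). *Hes6* (0.0444 and 0.691 CPM in SCs against 44.0 and 88.2 CPM in cHCs) and *Neurod6* (0 and 0.0797 CPM in SCs against 7.66 and 119 CPM in cHCs) did not pass it either, with FDRs of 0.162 and 0.116, though both cHC libraries were above both SC libraries for these 3 genes. The highest native levels were 3.69 CPM for *Insm1*, 8.55 CPM for *Hes6* and 0.164 CPM for *Neurod6*.

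Otic TFs that both cell types share did not pass the test in edgeR, but *Gata3* was called lower by DESeq2 (FDR = 0.0357), limma-voom (FDR = 0.0111) and edgeR without cHC replicate 13 (FDR = 0.0303). *Gata3* was measured at 857 and 833 CPM in SCs against 296 and 99.9 CPM in cHCs (log2 fold change -2.09, FDR = 0.107) and *Eya1* at 342 and 379.6 CPM in SCs against 404 and 354 CPM in cHCs (log2 fold change 0.07, FDR = 0.985). The LIM factor gene *Isl1* was at 143 and 120.3 CPM in SCs against 36.8 and 56.3 CPM in cHCs (log2 fold change -1.50, FDR = 0.345). For *Gata3* and *Isl1* both cHC libraries lay below both SC libraries, without passing the test. The regulatory factor gene *Rfx3* was above SCs in all 4 pairs, at 21.7 and 22.2 CPM in SCs against 73.0 and 158 CPM in cHCs (log2 fold change 2.39, FDR = 0.116).

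The study lists 444 TF genes that it kept for their level in its bulk libraries, these 4 included, so the list is no independent choice. All were tested here. Of these, 11 (2.48%) rose, beside 1.75% of all genes tested, and 3 fell, beside 0.0888%, with a median log2 fold change of -0.03. Besides the regulators above, *Bach2*, which encodes a leucine zipper repressor, was measured at 0.133 and 0.133 CPM in SCs against 118 and 75.4 CPM in cHCs (log2 fold change 9.46, SE 1.24, FDR = 0.00221). *Myt1*, a zinc finger gene of neuronal differentiation, was at 0 and 0.212 CPM in SCs against 34.2 and 131 CPM in cHCs (log2 fold change 9.43, SE 1.54, FDR = 0.00856). *Lin28b*, which encodes an inhibitor of let-7 maturation, had 2 counts in all in SCs and was at 21.9 and 28.8 CPM in cHCs (log2 fold change 9.50, SE 1.46, FDR = 0.00610), a ratio of 789 (95% counting interval 218 to 6512). Its native range was between 13.6 and 51.3 CPM. *Zfp276*, chosen here after its values were seen, was at 2.75 and 1.99 CPM in SCs against 27.7 and 87.1 CPM in cHCs (log2 fold change 4.60, SE 0.90, FDR = 0.0265).

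*Pax2* and *Esrrg* rose in cHCs and were close to absent from native hair cells. *Pax2*, an early otic paired-box gene, was measured at 0.0444 and 0.106 CPM in SCs against 46.2 and 114 CPM in cHCs (log2 fold change 9.92, SE 1.84, FDR = 0.0189), and the 6 native libraries did not exceed 0.253 CPM. *Esrrg*, which encodes an orphan nuclear receptor, had 2 counts in all in SCs and was at 50.5 and 98.5 CPM in cHCs (log2 fold change 10.90, SE 2.17, FDR = 0.0286), a ratio of 2421 (95% counting interval 670.3 to 19994), and the highest native level was 7.44 CPM. The call of *Pax2* was lost without SC replicate 12 (FDR = 0.116), without SC replicate 11 (FDR = 0.0890) and without cHC replicate 16 (FDR = 0.236), and that of *Esrrg* without SC replicate 12 (FDR = 0.124), without SC replicate 11 (FDR = 0.143) and without cHC replicate 16 (FDR = 0.160).

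The 3 TF genes that fell were all expressed in native hair cells. *Zfp827*, a zinc finger gene, was measured at 44.5 and 10.1 CPM in SCs against 0.0851 and 0.178 CPM in cHCs (log2 fold change -7.61, SE 1.25, FDR = 0.00864), beside between 19.9 and 95.8 CPM in native hair cells. *Pknox2*, a homeodomain gene, was at 59.7 and 11.3 CPM in SCs against 1.28 and 0.381 CPM in cHCs (log2 fold change -5.43, SE 0.998, FDR = 0.0183), beside between 58.6 and 262 CPM. *Aff3*, chosen here after its values were seen, was at 94.0 and 59.8 CPM in SCs against 14.8 and 6.81 CPM in cHCs (log2 fold change -2.83, SE 0.62, FDR = 0.0469), beside between 42.5 and 239 CPM. The call of *Zfp827* was lost without cHC replicate 13 (FDR = 0.0513) and without cHC replicate 16 (FDR = 0.0586), and that of *Pknox2* without cHC replicate 16 (FDR = 0.115).

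Among the 12 largest log2 rises were genes outside the hair cell lists. For 8 of them neither SC library had a count, so only a lower limit of the fold can be given, from 3 counts per library. *4930593A02Rik* reached 48.7 and 51.7 CPM in cHCs, at least 472-fold higher (FDR = 0.0236), *Maneal* 20.3 and 26.1 CPM, at least 218-fold higher (FDR = 0.00884), and *Rimbp2*, which encodes an active zone binding protein, 6.34 and 30.0 CPM, at least 171-fold higher (FDR = 0.0189). The other genes without SC counts were *Gm14025*, *Ano4*, *Frmpd1*, *Cables1* and *Spns3*, with limits between 79.0-fold and 139-fold. *Ano4*, a gene of the anoctamin family, was at 0.808 and 24.0 CPM, so that nearly all of its level came from 1 library. *Gm13373* had 4 counts in all in SCs and reached 106 and 170.3 CPM (log2 fold change 10.97, SE 1.84, FDR = 0.0102). *Kcnab2*, which encodes a potassium channel beta subunit, had 2 counts in all in SCs and reached 41.1 and 100.1 CPM (FDR = 0.0124), a ratio of 2345 (95% counting interval 649 to 19363). *Efcab1*, which encodes a protein with calcium-binding motifs, had 1 count in all in SCs and reached 48.5 and 67.2 CPM (FDR = 0.0492), a ratio of 3621 (95% counting interval 649.9 to 143030.0). *Esrrg*, described above, was also among the 12.

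Many calls among these large rises were lost when 1 library was left out, mostly with either of the SC libraries, while the fitted folds stayed large. In the fits that lost a call the log2 fold changes of *4930593A02Rik*, *Rimbp2*, *Frmpd1*, *Gm13373*, *Kcnab2*, *Gm14025* and *Efcab1* lay between 10.22 (*Kcnab2*) and 13.54 (*Efcab1*), and *Ano4* was lowest at 7.38 without cHC replicate 16. Those of *Cables1*, *Maneal* and *Spns3* were kept without each of the 4 libraries. The call of *4930593A02Rik* was lost without SC replicate 12 (FDR = 0.0714) and without SC replicate 11 (FDR = 0.0822), that of *Rimbp2* without SC replicate 12 (FDR = 0.0646) and without SC replicate 11 (FDR = 0.0773), that of *Frmpd1* without SC replicate 12 (FDR = 0.111) and without SC replicate 11 (FDR = 0.136) and that of *Gm13373* without SC replicate 12 (FDR = 0.0609) and without SC replicate 11 (FDR = 0.0529). The call of *Kcnab2* was lost without SC replicate 12 (FDR = 0.0699) and without cHC replicate 16 (FDR = 0.0786), and that of *Ano4* without SC replicate 12 (FDR = 0.109), without SC replicate 11 (FDR = 0.130) and without cHC replicate 16 (FDR = 0.0786). For *Gm14025* and *Efcab1* the call was lost without each library in turn, with FDRs between 0.0542 and 0.194 for *Gm14025* and between 0.0760 and 0.196 for *Efcab1*.

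Among the largest gains of mean level were those of *6330503K22Rik*, *Myo6*, *Ptprq*, *Tnc* and *Atoh1*. *6330503K22Rik* was measured at 73.3 and 43.6 CPM in SCs against 2438 and 4024 CPM in cHCs (log2 fold change 5.79, SE 0.68, FDR = 0.00111), and the highest native level was 346 CPM. *Tnc*, which encodes the matrix glycoprotein tenascin C, was at 0.800 and 1.43 CPM in SCs against 1013 and 1616 CPM in cHCs (log2 fold change 10.19, SE 1.86, FDR = 0.0216), while native hair cells ranged between 0 and 194 CPM. Both cHC libraries of these genes and of *Atoh1* exceeded every native library. The call of *Tnc* was lost without SC replicate 12 (FDR = 0.0746) and without SC replicate 11 (FDR = 0.0557).

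At least 10 counts in both cHC libraries and 0 in both SC libraries were found for 434 genes. Of these, 425 were tested and 10 called, beside 1.75% of all genes tested that were called higher. The reverse held for 53 genes, of which 50 were tested and 0 called, beside 0.0888% of all genes tested that were called lower. Counts were found on more genes in the cHC libraries (16732 and 18333) than in the SC libraries (15138 and 15849), and the part of this in these numbers was not tested. With up to 3 counts allowed in the absent group the numbers were 954 and 132. *Fam20c*, which encodes a secretory pathway kinase, was at 32.5 and 52.4 CPM in cHCs (at least 399-fold higher, FDR = 0.0851), and *Igsf21*, which encodes a synaptic adhesion protein, at 21.9 and 33.2 CPM (at least 259-fold higher, FDR = 0.0725). *Akd1*, *Cysltr1* and *Txlnb* were at 43.1 and 31.9, 53.2 and 6.58 and 31.0 and 22.8 CPM. Although they had no counts in SCs, these 5 genes did not pass the test. Among the SC genes without cHC counts, *Clic6*, an intracellular channel gene, was at 24.8 and 27.8 CPM (at least 258-fold lower in cHCs, FDR = 0.197) and *Ramp3*, which encodes a receptor activity modifier, at 17.9 and 14.6 CPM (at least 159.8-fold lower, FDR = 0.106). *Dapk2*, *Nt5c1b*, *Gmnn* and *Cyp2j9* followed, with SC levels that came mostly from replicate 12 for the first 3 (39.8 and 1.54, 37.0 and 0.611 and 34.1 and 2.60 CPM).

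Most genes of SC identity did not pass the test in edgeR. Of 36 listed genes 35 were tested, of which 1 fell, beside 0.0888% of all genes tested, and 34 did not pass the test, with a median log2 fold change of -1.81, or -1.55 with groups without counts at the floor. On the same 4 libraries DESeq2 called 5 members lower, limma-voom 8 and edgeR without a filter on low counts 10. Log2 fold changes were negative for 27 genes, beside 8074 of all 16891 genes tested. Both cHC libraries were below both SC libraries for 20, which held for 20.4% of all genes tested. Their summed level was 19759 and 25520 CPM in SCs against 8767 and 4081 CPM in cHCs. The gene that fell was *S100a1*, which encodes a calcium-binding protein, at 7255 and 10808 CPM in SCs against 2057 and 431 CPM in cHCs (log2 fold change -2.86, SE 0.60, FDR = 0.0381), and its call was lost without SC replicate 11 (FDR = 0.0761). Native hair cells were between 324 and 1232 CPM.

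The cHC libraries were unlike each other for this list. In 28 of the 35 tested genes replicate 13 was above replicate 16, compared with 7556 of all 16891 genes tested. In 8 genes replicate 13 had at least 10 CPM and at least 10 times the level of replicate 16. *Slc1a3*, the glutamate transporter gene of SCs, was measured at 76.6 and 129 CPM in SCs against 77.9 and 0.330 CPM in cHCs, a ratio between the cHC libraries of 236. *Kcnj10*, the potassium channel gene of SCs, was at 367 and 867 CPM in SCs against 219.9 and 1.73 CPM in cHCs, a ratio of 127, and *Gjb2*, the connexin 26 gene, at 124 and 393 CPM in SCs against 83.4 and 1.73 CPM in cHCs, a ratio of 48.3. *Epyc*, a proteoglycan gene of SCs, was at 2660.5 and 2767 CPM in SCs against 919 and 4.34 CPM in cHCs (ratio 212), *Bace2*, a protease gene, at 155 and 619 CPM in SCs against 55.0 and 0.254 CPM in cHCs (ratio 216) and *Tectb*, the beta tectorin gene, at 292 and 331 CPM in SCs against 36.2 and 1.07 CPM in cHCs (ratio 33.9). *Vim*, the vimentin gene, and the TF gene *Sox10* showed ratios of 36.8 and 10.05, with 21.5 and 0.584 and 56.9 and 5.66 CPM in cHCs. Thus replicate 13 kept SC genes at levels nearer to those of SCs, while replicate 16 was near the floor for several.

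The calls of this list depended on cHC replicate 13. Without it, 8 members were lower than in SCs instead of 1, with log2 fold changes of -4.39 for *S100a1* (FDR = 0.000168), -8.18 for *Tectb* (FDR = 0.000396), -10.55 for *Bace2* (FDR = 0.00252), -3.96 for *Rorb* (FDR = 0.00342), -7.23 for *Gjb2* (FDR = 0.00462), -8.27 for *Slc1a3* (FDR = 0.0287), -9.29 for *Epyc* (FDR = 0.0438) and -9.98 for *Vim* (FDR = 0.0467). With 1 cHC library left, its spread was assumed to be that of the other groups. Over all genes tested the number lower in cHCs was then 70, against 2 without replicate 16 and 15 with both. The summed level of SC genes was therefore lower in the library in which most called hair cell genes were higher, with *Atoh1* at 364 and 1812 CPM in replicates 13 and 16. With 2 libraries no relation between these levels can be tested.

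**Figure D4:**
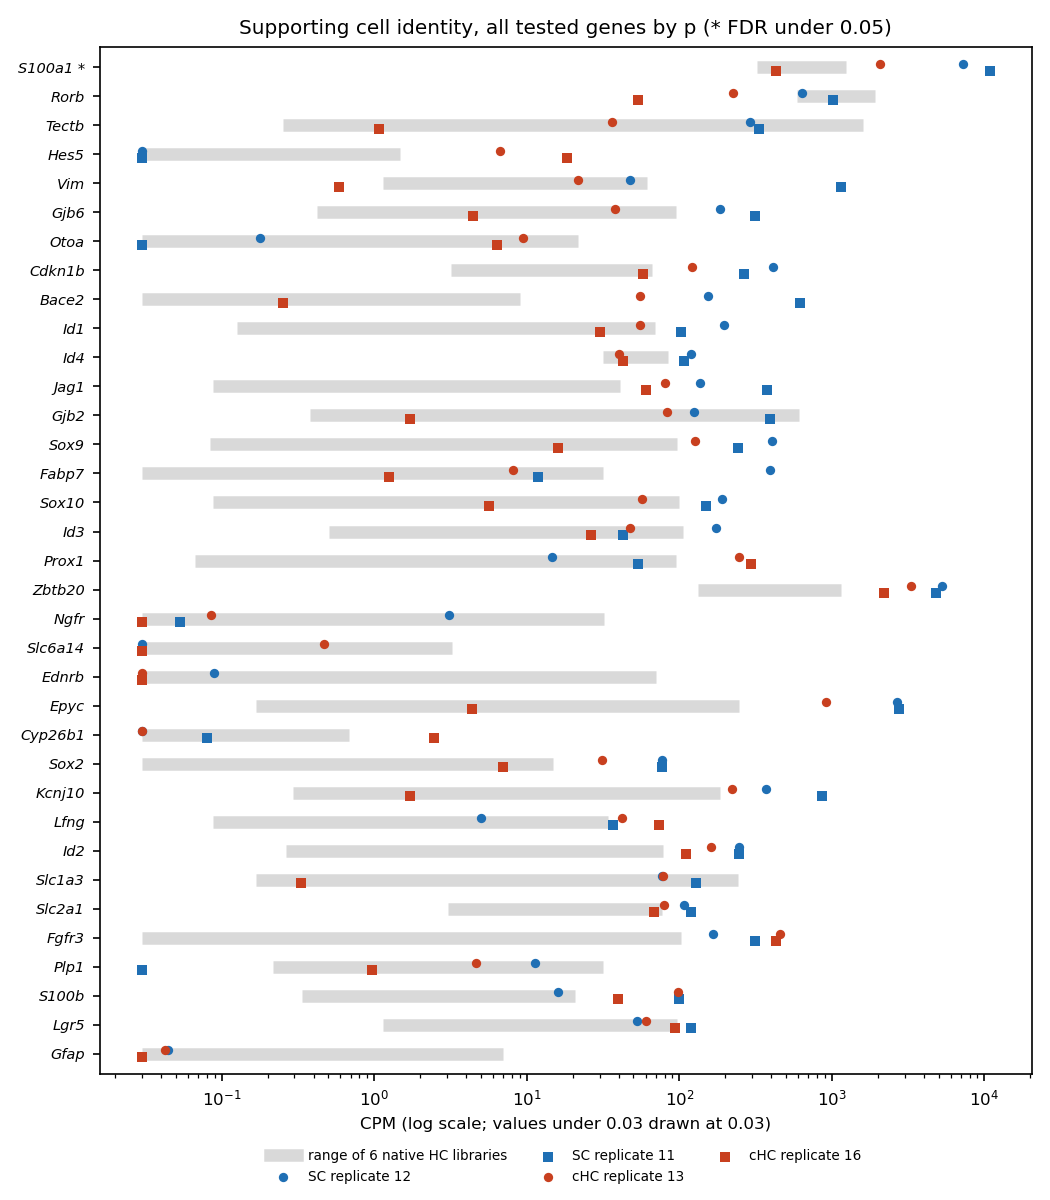
CPM (horizontal axis, log scale, values under 0.03 drawn at 0.03) of the 35 tested supporting cell genes (rows, in order of p) in SC replicates 12 and 11 (blue), cHC replicates 13 and 16 (red) and as the range of the 6 native hair cell libraries (grey bars), an asterisk marking an FDR under 0.05. The cHC points of *Slc1a3*, *Kcnj10*, *Epyc* and *Bace2* lie over 100 times apart, with replicate 13 nearer to SCs, whereas those of *Fgfr3* and *Prox1* lie together and right of the SC points.

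For some SC genes the cHC mean was not below the SC mean. *Fgfr3*, whose promoter drove the Cre, was measured at 167 and 312 CPM in SCs against 458 and 431 CPM in cHCs (log2 fold change 0.89, FDR = 0.842), and counts on it may include sequence of the Cre transgene. *Prox1*, a homeodomain gene of SCs, was at 14.7 and 53.7 CPM in SCs against 247 and 294 CPM in cHCs (log2 fold change 2.98, FDR = 0.438), with both cHC libraries above both SC libraries. *Lgr5*, a Wnt pathway receptor gene of SC subtypes, was at 53.1 and 119.7 CPM in SCs against 60.4 and 92.9 CPM in cHCs, with overlapping libraries (log2 fold change -0.17, FDR = 0.978). *Fgfr3* and *Prox1* did not exceed 103 and 95.7 CPM in native hair cells, so that cHCs were above every native library for both. The SC TF genes *Sox2* (77.5 and 77.1 CPM in SCs against 30.9 and 6.93 CPM in cHCs) and *Sox9* (402 and 242 CPM in SCs against 126 and 16.0 CPM in cHCs) were below SCs in all 4 pairs without passing the test, with FDRs of 0.602 and 0.375. *Cdkn1b*, the cell cycle inhibitor gene of the organ of Corti, was at 408 and 267 CPM in SCs against 121 and 57.6 CPM in cHCs (log2 fold change -1.92, FDR = 0.287). *Gfap*, a glial gene that marks Deiters' cells, was at or near 0 in all 4 libraries (0.0444 and 0 CPM in SCs against 0.0425 and 0 CPM in cHCs).

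Notch signalling links hair cells, which carry the ligands, to SCs, which carry receptors and Hes and Hey effectors. Of 26 tested genes of the pathway 2 rose in edgeR, beside 1.75% of all genes tested, and 24 did not pass the test, with a median log2 fold change of 0.32. DESeq2 called 6 higher and limma-voom 7. The ligand gene *Jag2* was measured at 0.133 and 0.691 CPM in SCs against 97.1 and 157 CPM in cHCs (log2 fold change 8.22, SE 1.29, FDR = 0.00646) and *Dner*, a ligand-like gene of hair cells and neurons, at 0 and 0.133 CPM in SCs against 42.2 and 59.3 CPM in cHCs (log2 fold change 9.30, SE 1.07, FDR = 0.000888). The ligand genes *Dll1* (0 and 0.0797 CPM in SCs against 20.9 and 70.0 CPM in cHCs), *Dll4* (0 and 0.0531 CPM in SCs against 20.6 and 57.2 CPM in cHCs) and *Dll3* (5.91 and 0.186 CPM in SCs against 48.3 and 70.1 CPM in cHCs) were above SCs in both cHC libraries without passing the test, with FDRs of 0.103, 0.0877 and 0.343. *Dll3* did not exceed 0.0818 CPM in native hair cells. *Jag1*, the ligand gene of SCs, was at 136 and 377 CPM in SCs against 80.9 and 60.4 CPM in cHCs (log2 fold change -1.86, FDR = 0.356).

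On the receiving side of the pathway 0 genes were called with edgeR, although 3 members of the whole list had a negative change at an unadjusted p under 0.05. DESeq2 called 2 members lower, *Hes1* (FDR = 0.0299) and *Hey1* (FDR = 0.0319), and limma-voom 1, *Hey1* (FDR = 0.0170). *Hey1* was measured at 537 and 359 CPM in SCs against 60.0 and 50.8 CPM in cHCs, *Heyl* at 456 and 183 CPM in SCs against 70.9 and 52.3 CPM in cHCs and *Hes1* at 83.3 and 195 CPM in SCs against 12.7 and 9.75 CPM in cHCs, each below SCs in all 4 pairs, with edgeR FDRs of 0.198, 0.310 and 0.247. *Hey2*, a pillar cell effector, was at 198 and 134 CPM in SCs against 92.2 and 16.1 CPM in cHCs (log2 fold change -1.62, FDR = 0.525). *Hes5* differed from these, at 0 and 0.0266 CPM in SCs against 6.68 and 18.3 CPM in cHCs (log2 fold change 9.33, FDR = 0.200), with both cHC libraries above SCs. The receptor gene *Notch1* was at 153 and 46.5 CPM in SCs against 33.1 and 39.2 CPM in cHCs (log2 fold change -1.46, FDR = 0.522). Among the genes of Fringe enzymes, which modify the receptors, *Mfng* was at 0 and 12.2 CPM in SCs against 59.7 and 151 CPM in cHCs and *Lfng* at 4.97 and 36.5 CPM in SCs against 42.3 and 73.5 CPM in cHCs, with FDRs of 0.373 and 0.729.

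The FGF pathway maintains pillar and Deiters' cells. Of 17 listed genes 12 were tested, with a median log2 fold change of 0.43. With edgeR 0 of the 12 were called and 0 had an unadjusted p under 0.05, while DESeq2 called 0 and limma-voom 1. The smallest FDR in the list was that of *Dusp6*, a feedback inhibitor gene, at 0.800 and 3.75 CPM in SCs against 23.6 and 8.13 CPM in cHCs (FDR = 0.396). The feedback genes *Spry2* (249.5 and 362 CPM in SCs against 106 and 13.7 CPM in cHCs) and *Spry1* (14.4 and 28.2 CPM in SCs against 14.3 and 4.04 CPM in cHCs) had lower cHC means, and the target gene *Etv1* (13.7 and 43.3 CPM in SCs against 77.7 and 62.6 CPM in cHCs) had a higher one. *Fgf8*, a ligand gene of IHCs, was too low to be tested, at 0 and 0.0266 CPM in SCs against 0.0425 and 0.457 CPM in cHCs.

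Hair cells and SCs of the mature cochlea do not divide. Of 22 cell cycle genes 16 were tested, with a median log2 fold change of 0.35, or 0.06 with groups without counts at the floor. With edgeR 0 of the 16 were called, while 3 had an unadjusted p under 0.05, DESeq2 called 1 and limma-voom 2. *Mki67*, a proliferation marker gene, was at 0.0444 and 0 CPM in SCs against 8.38 and 0.0254 CPM in cHCs and was not tested. *Top2a* (0 and 0 CPM in SCs against 0.0425 and 0.0508 CPM in cHCs) and *Ccna2* (0 and 0 CPM in SCs against 0 and 0.406 CPM in cHCs) were at or near 0. *Cdkn1c*, which encodes the cell cycle inhibitor p57, was the member with the smallest FDR, at 0.222 and 3.56 CPM in SCs against 196 and 275 CPM in cHCs (log2 fold change 6.95, SE 1.66, FDR = 0.0676), and native hair cells did not exceed 0.464 CPM.

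Genes of the neuronal cytoskeleton and of secretory granules had 5 rises among 22 tested members in edgeR, beside 1.75% of all genes tested (10 in DESeq2), with a median log2 fold change of 4.67, or 3.11 with groups without counts at the floor. Granins, which fill secretory granules, were among them. *Chga* was measured at 0.0888 and 0.239 CPM in SCs against 59.7 and 104 CPM in cHCs (log2 fold change 8.89, SE 1.30, FDR = 0.00437), *Chgb* at 0.400 and 0.319 CPM in SCs against 111 and 147 CPM in cHCs (log2 fold change 8.48, SE 1.24, FDR = 0.00434) and *Scg3* at 0.222 and 0.239 CPM in SCs against 53.8 and 139 CPM in cHCs (log2 fold change 8.67, SE 1.02, FDR = 0.00110). The neurofilament gene *Nefm* was at 0.400 and 0.106 CPM in SCs against 66.2 and 105 CPM in cHCs (log2 fold change 8.43, SE 1.05, FDR = 0.00158), and the kinesin gene *Kif5c* at 0.444 and 6.77 CPM in SCs against 135 and 291 CPM in cHCs (log2 fold change 5.87, SE 1.10, FDR = 0.0205). All 5 calls were kept without each of the 4 libraries. *Tubb3* and *Stmn2*, general neuronal genes, did not exceed 0.133 CPM in these libraries, and *Elavl4*, a neuronal RNA-binding protein gene, was at 0 and 0.0266 CPM in SCs against 0.170 and 30.3 CPM in cHCs (log2 fold change 9.60, FDR = 0.195), nearly all of it in 1 cHC library.

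The tectorial and otic matrix is secreted mainly by SCs and their neighbours. Of 16 tested matrix genes *Tnc* rose in edgeR, beside 1.75% of all genes tested, and 15 did not pass the test, and the median log2 fold change was -1.88. *Otog*, the otogelin gene, was measured at 961 and 1079 CPM in SCs against 464 and 77.3 CPM in cHCs (log2 fold change -1.91, FDR = 0.448) and *Otogl* at 482 and 471 CPM in SCs against 173 and 9.47 CPM in cHCs (log2 fold change -2.39, FDR = 0.502). *Ceacam16*, which encodes a tectorial membrane protein, was at 225 and 3154 CPM in SCs against 104 and 0.787 CPM in cHCs (log2 fold change -5.01, FDR = 0.285). With edgeR 0 matrix genes were lower, while 2 had a negative change at an unadjusted p under 0.05, and the number lower was 2 with DESeq2, 3 with limma-voom, 5 without the filter and 4 without cHC replicate 13. In *Otog*, *Otogl* and *Ceacam16* both cHC libraries were below both SC libraries, and replicate 16 was the lowest. *Tecta*, the alpha tectorin gene, was at 0 and 0.106 CPM in SCs against 0.0425 and 0.356 CPM in cHCs.

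Immediate early genes respond within minutes to the handling of cells. Of 19 tested members 13 had a negative log2 fold change, with a median of -1.65. With edgeR 0 were called, while 4 had an unadjusted p under 0.05, DESeq2 called 1 and limma-voom 2. Their summed level was 2428 and 9804 CPM in SCs against 1591 and 1429 CPM in cHCs, so that SC replicate 11 stood apart. *Fos* was measured at 102 and 907 CPM in SCs against 82.6 and 60.7 CPM in cHCs, *Egr1* at 911 and 2802 CPM in SCs against 500.0 and 579 CPM in cHCs and *Jun* at 464 and 1303 CPM in SCs against 163 and 64.0 CPM in cHCs, with FDRs of 0.230, 0.412 and 0.0791. Stress and cell death genes had a median log2 fold change of 0.03 over 16 tested members. With edgeR 0 of these were called, while 3 had an unadjusted p under 0.05, DESeq2 called 1 and limma-voom 2, and the chaperone gene *Hspa5* was at 719 and 622 CPM in SCs against 327 and 286 CPM in cHCs (log2 fold change -1.13, FDR = 0.293). The part of the immediate early response of SC replicate 11 in other results was not tested.

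The 15 genes that fell were all protein coding and all had SC levels above 10 CPM in both libraries. Native hair cells expressed most of them, with at least 1 CPM in all 6 libraries for 13 of 15 (86.7%), beside 44.5% of all genes tested. That background includes genes with lower SC levels, so the shares are not of like sets. *Fbxo2*, which encodes a glycoprotein-binding ubiquitin ligase subunit, was measured at 2957 and 3412 CPM in SCs against 925 and 430.2 CPM in cHCs (log2 fold change -2.23, SE 0.46, FDR = 0.0356). The cochaperone gene *Dnajb1* was at 376 and 1617 CPM in SCs against 100.5 and 101 CPM in cHCs (log2 fold change -3.30, SE 0.66, FDR = 0.0286) and *Tpt1*, which encodes a translationally controlled tumour protein, at 968 and 977 CPM in SCs against 255 and 223 CPM in cHCs (log2 fold change -2.02, SE 0.42, FDR = 0.0352). *Muc15*, a mucin gene, was at 654 and 949.9 CPM in SCs against 138 and 31.4 CPM in cHCs (log2 fold change -3.24, SE 0.65, FDR = 0.0305), and *9530077C05Rik* at 356 and 603 CPM in SCs against 28.5 and 12.7 CPM in cHCs (log2 fold change -4.54, SE 0.90, FDR = 0.0277). For *Dnajb1* the SC libraries differed more widely from each other than the cHC libraries did.

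Fold falls were largest in genes that almost vanished from cHCs. *Dse*, which encodes an epimerase of dermatan sulfate, was measured at 51.3 and 29.8 CPM in SCs against 0.128 and 0.0762 CPM in cHCs (log2 fold change -8.59, SE 1.79, FDR = 0.0433). *Ephb4*, an ephrin receptor gene, was at 10.8 and 16.4 CPM in SCs against 0.0851 and 0.0254 CPM in cHCs (log2 fold change -7.92, SE 1.53, FDR = 0.0247), with 3 counts in all in cHCs and a ratio of SCs to cHCs of 300.2 (95% counting interval 103 to 1456). *Arhgap31*, which encodes a GTPase-activating protein, was at 57.3 and 104 CPM in SCs against 1.02 and 0.914 CPM in cHCs (log2 fold change -6.38, SE 1.35, FDR = 0.0387). *Kazald1*, *Pla2g7* and *Aifm3* had log2 fold changes of -4.54, -4.35 and -3.90, with cHC levels of 7.79 and 5.26, 3.02 and 3.25 and 1.70 and 2.97 CPM.

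Each of the 15 falls lost its call without at least 1 of the 4 libraries. For *Dse*, *Arhgap31* and *Tpt1* the call was lost without each library, with FDRs between 0.0664 and 0.309, between 0.0636 and 0.263 and between 0.0905 and 0.259. The call of *Fbxo2* was lost without SC replicate 11 (FDR = 0.0700) and without cHC replicate 16 (FDR = 0.200), that of *Muc15* without SC replicate 11 (FDR = 0.0666) and without cHC replicate 16 (FDR = 0.103) and that of *9530077C05Rik* without SC replicate 11 (FDR = 0.0745) and without cHC replicate 16 (FDR = 0.164). The call of *Dnajb1* was lost without SC replicate 11 (FDR = 0.212), without cHC replicate 13 (FDR = 0.0776) and without cHC replicate 16 (FDR = 0.137), that of *Ephb4* without cHC replicate 13 (FDR = 0.0610) and without cHC replicate 16 (FDR = 0.183) and that of *Kazald1* without SC replicate 12 (FDR = 0.178), without cHC replicate 13 (FDR = 0.115) and without cHC replicate 16 (FDR = 0.263). The call of *Pla2g7* was lost without SC replicate 12 (FDR = 0.0889), without cHC replicate 13 (FDR = 0.107) and without cHC replicate 16 (FDR = 0.179), and that of *Aifm3* without SC replicate 11 (FDR = 0.198), without cHC replicate 13 (FDR = 0.179) and without cHC replicate 16 (FDR = 0.167).

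Markers of other cochlear cells were given for the whole lists. Among spiral ganglion markers, 2 of 9 tested genes rose, *Nefm* and *Snap25*, beside 1.75% of all genes tested. Native hair cells also expressed these 2, at between 39.2 and 163 and between 208 and 348 CPM, while *Prph* and *Slc17a7* did not exceed 0.0851 CPM. The tested markers of 6 other cell types were 7 of Schwann cells and satellite glia, 4 of immune cells, 3 of red blood cells, 8 of mesenchyme, 4 of endothelium and 4 of stria and Reissner membrane. With edgeR 0 of these 30 were called, while 2 had an unadjusted p under 0.05, and DESeq2 and limma-voom each called 1. The summed level of mesenchymal markers was 707 and 831 CPM in SCs against 198 and 21.4 CPM in cHCs, nearly all of it *Lum* (684 and 716 CPM in SCs against 178 and 6.60 CPM in cHCs), and *Col1a2* and *Col3a1* did not exceed 1.70 CPM. Summed levels of Schwann cell markers were 49.7, 84.1, 69.1 and 203 CPM. Immune markers summed to between 5.51 and 23.5 CPM with *Ptprc* at no more than 0.0254 CPM, and red blood markers to at most 2.18 CPM. Endothelial markers summed to 56.6, 3.77, 10.9 and 5.08 CPM, with *Cldn5* at no more than 0.0425 CPM, and markers of the stria to 67.7, 24.9, 108 and 43.1 CPM, nearly all of it *Slc12a2* (65.7 and 24.2 CPM in SCs against 103 and 41.3 CPM in cHCs). Spiral ganglion markers summed to 860 and 834 CPM in SCs against 489 and 579 CPM in cHCs, *Gata3* included. The part of these cells in the values of SC genes was not tested.

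**Figure D5:**
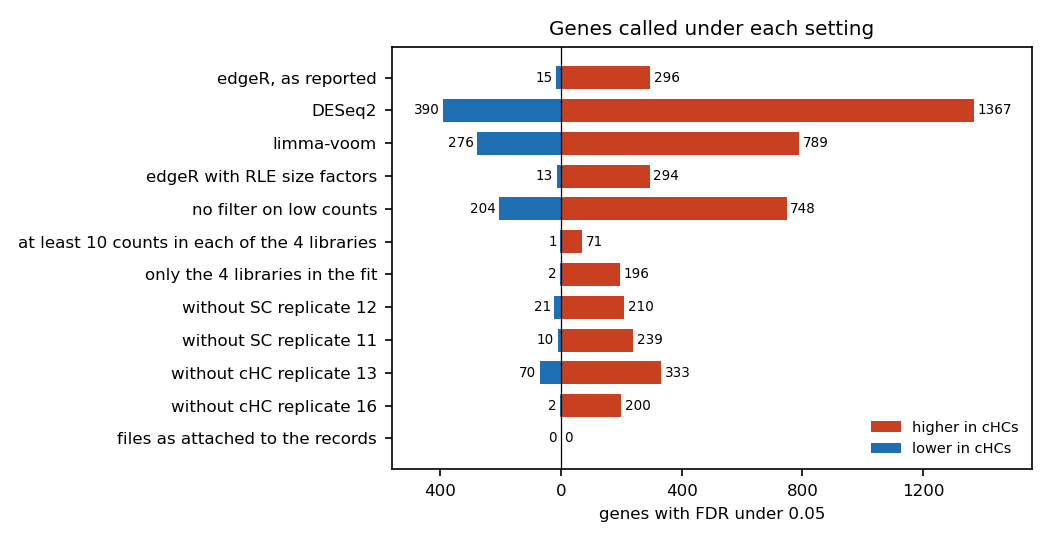
Number of genes with an FDR under 0.05 (horizontal axis) that were higher (red, right of 0) or lower (blue, left of 0) in cHCs than in SCs, under the reported test and each alternative (rows). The number of higher genes ranges from 0 with the files as attached to the records to 1367 with DESeq2, and that of lower genes from 0 to 390.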

How the data were processed

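RNA of handpicked fluorescent cochlear cells was amplified by single primer isothermal amplification and sequenced as paired-end reads of 100 bases. The authors deposited raw read counts per gene symbol, made with HTSeq after mapping to mm9 with STAR and BWA, without normalization. Of the 10 files, 4 were attached to another record than their own library name gives, so each file was taken for the library it names. For the 4 SC and cHC libraries, the CPM columns of a supplementary table were a constant multiple of the counts. The files of native hair cells were not checked in this way.

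The 34590 listed genes were filtered with filterByExpr by cell type, which kept 16891, and cHCs were tested against SCs by quasi-likelihood F-tests in edgeR 4.0.16 (R 4.3.3), after TMM scaling, in 1 model of all 10 libraries, 2-sided, with Benjamini-Hochberg adjustment over all genes tested. The standard error was the log2 fold change divided by the square root of F. CPM were TMM-scaled. The limit of a fold against a group without counts was taken from 3 counts per library, and ratios at 1 to 3 counts carry 95% Poisson counting intervals. Coordinates and promoters came from mm9 with GENCODE models. Python 3.11.15, pandas 2.3.3, numpy 2.4.6, scipy 1.17.1 and matplotlib 3.10.9 were used, and the tests were tried on simulated counts.

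The members and gene lists were chosen with earlier results of these data known. Named genes were *Atoh1*, the 12 largest called rises and falls with one direction in all 4 pairs, the 6 largest gains and losses of mean CPM, the defining genes and up to 6 genes with the smallest p of each list, the 6 highest genes present in one cell type only, list members whose call changed under an alternative, and 6 called TF genes of the study. Some of these are not reported here. Genes printed as not having passed the test were in part chosen for their role. Alternatives were DESeq2 1.42.0, limma 3.58.1 with voom, RLE scaling, other filters, a fit of only the 4 libraries, the files as attached and leaving out each library. Columns with results of the comparisons of the authors were not used.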

Additional observations from a re-analysis of the deposited data

How the results depend on the processing

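The number of higher genes was 296 as reported, 1367 with DESeq2 1.42.0, 789 with limma-voom, 748 without a filter on low counts, 71 with at least 10 counts in each of the 4 libraries, 196 with only these libraries in the fit and 0 with the files as attached to the records, where 590 genes had an unadjusted p under 0.05. The number of lower genes was 15 as reported, and 390, 276, 204, 1, 2 and 0 under these settings in the same order. The calls shared with the 296 were 296 with DESeq2, 249 with limma-voom, 296 without the filter, 71 with at least 10 counts and 149 with only the 4 libraries. The filter at 10 counts tested 9832 genes and so leaves out genes that were silent in SCs. Leaving out 1 library gave 200 to 333 higher and 2 to 70 lower genes. RLE scaling in place of TMM gave 294 and 13. The median log2 fold change of all genes moved from 0.03 to 0.17 with limma-voom, to 0.36 without SC replicate 12 and to 0.46 without SC replicate 11.

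Of the hair cell list members 45 of 106 tested were higher as reported, 62 with DESeq2, 65 without the filter, 33 of 98 with only the 4 libraries, 18 of the 52 that remained tested with at least 10 counts and 0 with the files as attached. Of the SC list members 1 was lower as reported, 5 with DESeq2, 8 with limma-voom, 10 without the filter, 0 with at least 10 counts, 0 with only the 4 libraries, 0 with the files as attached and 0 to 8 without 1 library. With up to 3 counts allowed in the absent cell type, 954 genes in place of 434 were present in cHCs only and 132 in place of 53 in SCs only. Over the genes kept by the filter, rho between duplicates was 0.801 in SCs and 0.809 in cHCs. Of 82 named genes called as reported, DESeq2 called 82, limma-voom 71, RLE scaling 80, the fit of only the 4 libraries 42, and the fits without SC replicate 12, SC replicate 11, cHC replicate 13 and cHC replicate 16 called 62, 58, 71 and 60. The causes were not tested.

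Direction was reversed under 1 setting, the files as attached to the records, which puts libraries of other cell types into the groups. There the log2 fold changes were -3.85 for *6330503K22Rik*, 0.75 for *9530077C05Rik*, 2.64 for *Aifm3*, -6.46 for *Ano4*, 0.88 for *Arhgap31*, -6.48 for *Atoh1*, -1.45 for *Bach2*, -0.75 for *Chga*, -2.35 for *Chrna9*, 1.88 for *Dnajb1*, -7.79 for *Efcab1*, 1.34 for *Ephb4*, -10.19 for *Esrrg*, -8.94 for *Gm13373*, -2.71 for *Jag2*, -1.05 for *Kcnab2*, -0.74 for *Lhfpl5*, -0.70 for *Lhx3*, 0.63 for *Muc15*, -0.94 for *Myo3a*, -0.45 for *Myo3b*, -0.29 for *Myo6*, -2.14 for *Myt1*, -0.39 for *Nhlh1*, -8.45 for *Pax2*, 1.51 for *Pknox2*, 3.16 for *Pla2g7*, -1.38 for *Pvalb*, -1.77 for *Rims2*, 0.32 for *S100a1*, -1.32 for *Srrm4*, -0.32 for *Tmie*, -2.38 for *Tnc*, 0.0591 for *Tpt1* and 0.18 for *Zfp827*. No paired analysis was run, because the groups share no replicate number. The titles of SC replicate 12 and cHC replicate 13 carry a sample number that those of SC replicate 11 and cHC replicate 16 lack. What it stands for is not given, and its part in the results was not tested.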
